A study of Rattus norvegicus with 16 samples.

Results

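The 10 genes described here, Gpx1, Gpx3, Gpx4, Txnrd1, Prdx1, Cat, Sod1, Sod2, Hmox1 and Gclc, encode enzymes that remove hydrogen peroxide or superoxide, or that supply and recycle the thiols used to do so. They were listed by function, and their probes were those whose RefSeq accession in the array files resolved to 1 of the 10 symbols. This gave 14 of the 41012 probes measured, with 3 probes for Txnrd1, 2 each for Gpx1 and Sod1 and 1 for each of the other genes.

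Thyroid follicular cells make hydrogen peroxide on purpose. The NADPH oxidases Duox1 and Duox2 release it at the apical surface, where it is used to attach iodide to thyroglobulin. The same cells therefore carry catalase, glutathione peroxidases, peroxiredoxins and thioredoxin reductases, several of them selenium-containing enzymes, which reduce the peroxide that reaches the cell interior.

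RNA was taken from PCCl3 cells, a continuous line of Fischer rat thyroid follicular cells that expresses thyroid genes under the transcription factor Pax8, and hybridized on Agilent rat whole-genome 2-colour arrays. Transient transfection with siRNA against Pax8 (siPax8) was set against 2 controls, wild type cells (wt) and cells given scrambled siRNA (siScramble), in 4 biological replicates per comparison. Each replicate was hybridized on 2 arrays with Cy3 and Cy5 exchanged, 16 arrays in all. Both siRNAs were given at 10 ng per ml with Lipofectamine, all cells grew with 1 nM thyrotropin (TSH), and the methods give 48 hours from transfection to RNA isolation. The labels name the first control wild type, whereas the methods list it as cells treated with lipofectamine, so whether it saw the transfection reagent cannot be told from them. The design scheme gives siPax8 samples of one number the same name in both comparisons, so the 2 ratios of a gene may share their siPax8 RNA and are set side by side here without a correlation.

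Ratios are log2 of siPax8 over control, with the direction taken from the dyes in the labels, so a negative value is lower in siPax8 cells. This is opposite to how the text of the study words the direction of its counts of changed probes, but not to the direction it gives for Dio1. A probe was called where limma's adjusted p over all probes was below 0.005. Pax8 itself, the targeted gene, gave -0.84, -0.57, -0.59 and -0.26 over wt in replicates 1 to 4, a mean of -0.56 ± 0.24 (SD, n = 4; adjusted p = 0.000475). Over siScramble it gave -0.58, -0.29, -0.12 and -0.01, a mean of -0.25 ± 0.25 that did not pass (adjusted p = 0.143). Of 6 thyroid follicular markers measured, all were well above background on all 16 arrays in both channels, whereas the fibroblast genes Col3a1 and Dcn and the endothelial gene Pecam1 were so on none. Col1a2, Cd68 and the C-cell gene Calca were also well above background on all 16. Between 54.0% and 60.8% of spots were well above background in Cy3 and 52.0% to 59.1% in Cy5, and the number of arrays limits the precision. The 4 slides each held 2 arrays of each comparison, one per dye orientation.

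Against wt cells, 3 of the 10 enzymes were lower in siPax8 cells on every probe they have: catalase, the copper and zinc superoxide dismutase Sod1 and Gclc, the catalytic subunit of glutamate-cysteine ligase. Their levels were 81.1% to 85.0% of those in wt. None of the 10 passed against siScramble. Counted by probe, 7 of 14 were called against wt, 2 higher and 5 lower, where 15.3% of all probes were called (7.03% higher and 8.22% lower). Against siScramble 0 of 14 were called, where 2.11% of all probes were, although 3 of the 14 had an unadjusted p below 0.05 and 2 an adjusted p below 0.05. The differences were small: over the 14 probes the median absolute log2 ratio was 0.18 against wt and 0.03 against siScramble, beside 0.044 and 0.032 over all probes. All but the Gpx3 probe were well above background on every array, whereas the all-probe values include probes near background, where ratios are narrowed. No share or median over detected probes alone is given, so the enzymes are not compared here with expressed genes only. Over the 14 probes the range was -0.30 to 0.21 against wt and -0.10 to 0.37 against siScramble.

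**Figure D1:**
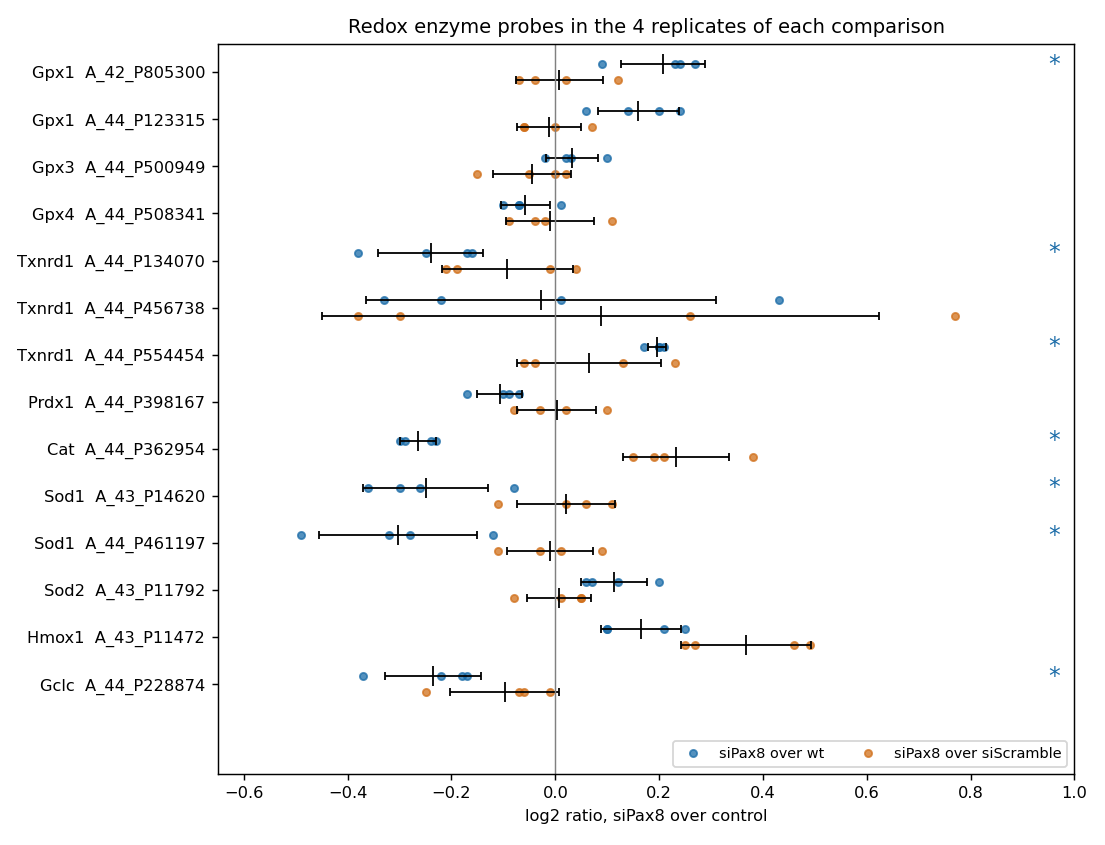
Log2 ratio of siPax8 over control (x axis) for each of the 14 probes (y axis). Points are the 4 replicates, each the mean of 2 dye-swapped arrays; bars are the mean and SD, and an asterisk marks a probe past adjusted p 0.005. Cat lies at -0.30 to -0.23 over wt and at 0.15 to 0.38 over siScramble.

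To show where these genes start, RefSeq's promoter table (build GRCr8) held 12 start sites for 9 of the 10 genes, all but Hmox1. The 250 bases before each start were searched on both strands for TGACNNNGC, the core of the antioxidant response element through which Nrf2 acts on many redox genes, and for GCGTGAC, part of the site that Pax2, Pax5 and Pax8 bind. The letters TGAC occur in both motifs, so matches could overlap. The first motif occurred in 10.1% and the second in 1.74% of 33469 promoter windows of that length. Among the members the first was found before Prdx1, Sod2 and the second Txnrd1 start site, and the second before the third Gpx4 start site. The windows before the 3 genes called lower against wt held neither motif; they are printed here together with those of Prdx1 and Txnrd1, whose matches stand in capitals.

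Cat (chr3:110329527-110329776, minus strand): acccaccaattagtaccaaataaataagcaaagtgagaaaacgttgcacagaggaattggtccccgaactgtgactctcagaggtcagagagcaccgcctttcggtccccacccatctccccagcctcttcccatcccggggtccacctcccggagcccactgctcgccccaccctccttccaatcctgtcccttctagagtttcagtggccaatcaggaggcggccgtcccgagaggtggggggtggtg

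Sod1 (chr11:42942573-42942822, plus strand): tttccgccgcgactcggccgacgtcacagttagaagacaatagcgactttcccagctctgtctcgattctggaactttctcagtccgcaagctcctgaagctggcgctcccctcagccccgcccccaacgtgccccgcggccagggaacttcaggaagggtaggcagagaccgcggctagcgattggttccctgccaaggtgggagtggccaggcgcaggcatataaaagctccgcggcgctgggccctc

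Gclc (chr8:87510226-87510475, plus strand): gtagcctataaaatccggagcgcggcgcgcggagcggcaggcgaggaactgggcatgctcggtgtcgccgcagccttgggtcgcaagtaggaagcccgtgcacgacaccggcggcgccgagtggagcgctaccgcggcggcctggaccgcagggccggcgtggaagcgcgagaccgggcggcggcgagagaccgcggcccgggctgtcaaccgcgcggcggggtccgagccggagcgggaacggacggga

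Prdx1 (chr5:135383656-135383905, plus strand): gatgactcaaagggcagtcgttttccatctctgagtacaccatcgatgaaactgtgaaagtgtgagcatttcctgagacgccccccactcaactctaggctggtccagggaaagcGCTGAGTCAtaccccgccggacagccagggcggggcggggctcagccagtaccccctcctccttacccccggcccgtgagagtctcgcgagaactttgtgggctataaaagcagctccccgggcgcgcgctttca

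Txnrd1 (chr7:22755905-22756154, minus strand): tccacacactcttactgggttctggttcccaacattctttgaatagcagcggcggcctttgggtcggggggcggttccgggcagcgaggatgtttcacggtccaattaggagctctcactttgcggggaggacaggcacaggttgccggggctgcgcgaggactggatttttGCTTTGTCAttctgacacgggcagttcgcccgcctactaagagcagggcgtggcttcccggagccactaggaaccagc

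In Prdx1 the match GCTGAGTCA begins 135 bases before the start, and in Txnrd1 the match GCTTTGTCA begins 78 bases before it, both on the reverse strand of the gene. These are matches of letters in a window, and binding was not measured by these arrays. The 250-base windows of the members had a median GC content of 61.6%, beside 51.2% over all windows, and ranged from 42.0% at the first Txnrd1 start to 74.8% at Gclc.

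Catalase, the peroxisomal enzyme that splits hydrogen peroxide into water and oxygen, was the only one of the 14 probes whose ratios against the 2 controls differed past the threshold. Its probe (A_44_P362954, NM_012520) gave -0.30, -0.23, -0.29 and -0.24 over wt in replicates 1 to 4. All 4 replicates were below 0 and close together, with a mean of -0.27 ± 0.04 (SD, n = 4; adjusted p = 0.000184), or 83.2% of the wt level. Over siScramble the same probe gave 0.19, 0.21, 0.15 and 0.38. These 4 replicates were all above 0, and did not overlap those over wt. Their mean of 0.23 ± 0.10, 117.5% of the siScramble level, missed the threshold (adjusted p = 0.0168). It passed at the same ratio with the slide block, the dye term and both comparisons in 1 fit (adjusted p = 0.00413, 0.00344 and 0.00199). The first 2 of these fits entered dye-swapped arrays of one replicate as separate values, so their smaller p-values do not rest on more replicates. The difference between the comparisons was -0.50 (95% interval -0.61 to -0.38; adjusted p = 0.000193), where 3.44% of all probes passed the same test.

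The channel intensities show the levels behind these ratios. They come from another between-array scaling than the ratios, with outlier-marked spots kept, so they match the ratios only approximately. On the log2 scale the catalase probe stood at 10.28 ± 0.04 in wt and 9.76 ± 0.06 in siScramble cells, with siPax8 cells between them at 10.03 ± 0.08 on the arrays shared with wt and 10.00 ± 0.09 on those shared with siScramble (SD, n = 4 each). The siPax8 level was thus alike in both sets of arrays, and the 2 controls stood on either side of it. Both sets may hold the same siPax8 RNA, so this likeness is no independent agreement. No array held wt and siScramble RNA together, so this order of the controls is indirect. Within each slide the ratio ranged from -0.33 to -0.21 over wt and from 0.17 to 0.41 over siScramble, with the same sign on all 4 slides. The dye mattered for its size: over wt it was -0.14 where siPax8 was in Cy5 and -0.39 where it was in Cy3, and with Cy5 arrays alone the call was lost. It was also lost with the intensities processed by the Agilent software (-0.31, adjusted p = 0.0144).

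**Figure D2:**
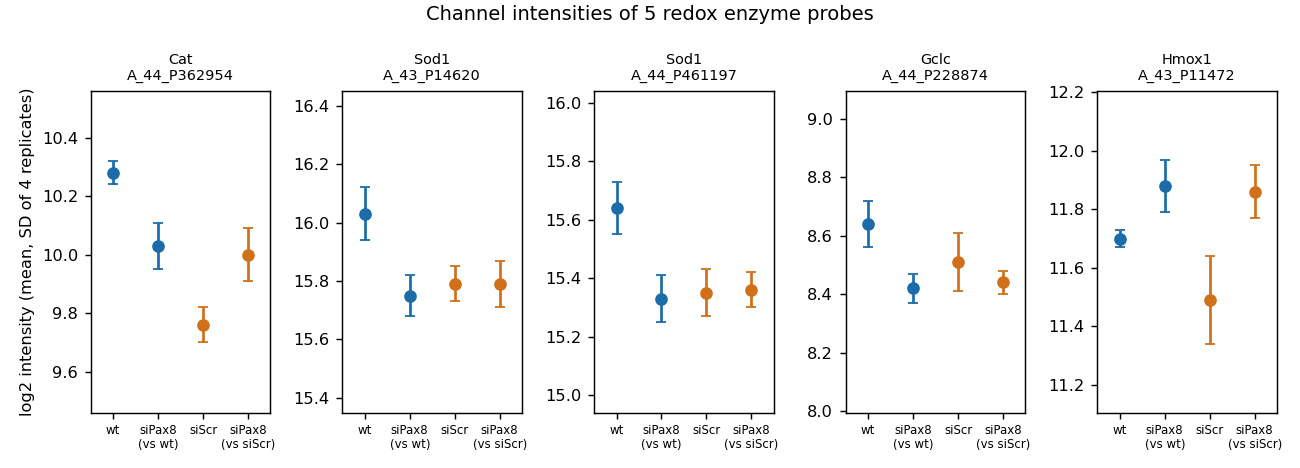
Log2 channel intensity (y axis, each panel spanning the same 1.1 log2 units) of the catalase, Sod1, Gclc and Hmox1 probes in wt, siPax8 and siScramble (siScr) cells. Points are means and bars SD of 4 replicates, blue for arrays against wt and orange for arrays against siScramble. For both Sod1 probes wt stands above the other 3 groups.

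Sod1, which turns superoxide in the cytosol into hydrogen peroxide, was lower against wt on both of its probes. Probe A_44_P461197 (NM_017050) gave -0.12, -0.32, -0.49 and -0.28 in replicates 1 to 4, and A_43_P14620 gave -0.08, -0.30, -0.36 and -0.26. On both probes replicate 1 was nearest to 0 and replicate 3 farthest from it. The means were -0.30 ± 0.15 (adjusted p = 0.00218) and -0.25 ± 0.12 (adjusted p = 0.00255). Over siScramble the first probe lay between -0.11 and 0.09 and the second between -0.11 and 0.11, with means of -0.01 ± 0.08 and 0.02 ± 0.09. The 95% intervals of these means, -0.09 to 0.07 and -0.07 to 0.11, leave out a decrease of the size seen against wt. The difference between the comparisons was -0.29 and -0.27 and missed the threshold (adjusted p = 0.0243 and 0.0223). Both passed with the replicate block (adjusted p = 0.00321 and 0.00201) and with the dye term (0.00203 and 0.00231), but not with the slide block (0.031 and 0.00711). For the difference the replicate block paired the comparisons by replicate number, and these numbers did not qualify as pairs. Deviations of replicate 3 correlated at 0.04 with its own number and at 0.41 with another. The dye term entered dye-swapped arrays of one replicate as separate values, so its smaller p-values do not rest on more replicates. In channel intensity the first probe stood at 15.64 ± 0.09 in wt, 15.35 ± 0.08 in siScramble and 15.33 ± 0.08 or 15.36 ± 0.06 in siPax8 cells. The second probe was brighter, at 16.03 ± 0.09 in wt. No spot of either probe was marked as saturated. The Sod1 calls against wt were lost without replicate 2, 3 or 4, with Cy5 arrays alone and with the intensities processed by the Agilent software, although the ratio stayed between -0.44 and -0.16 throughout.

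Sod2, the manganese superoxide dismutase of mitochondria, was not called. Its probe gave 0.12, 0.06, 0.07 and 0.20 over wt, all above 0, with a mean of 0.11 ± 0.07 (adjusted p = 0.0344). Over siScramble it gave -0.08, 0.01, 0.05 and 0.05, a mean of 0.01 ± 0.06 with a 95% interval of -0.07 to 0.08. The sign over wt was opposite to that of Sod1.

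Gclc makes the first, rate-limiting step of glutathione synthesis. Its probe (A_44_P228874, NM_012815) gave -0.37, -0.17, -0.22 and -0.18 over wt. All 4 were below 0, with a mean of -0.24 ± 0.09 (adjusted p = 0.00168), or 85.0% of the wt level. Over siScramble it gave -0.07, -0.06, -0.25 and -0.01, again all below 0, with a mean of -0.10 ± 0.10 that did not pass (adjusted p = 0.241). The 2 ratios did not differ past the threshold (-0.14, 95% interval -0.27 to 0.00, adjusted p = 0.217). Replicate 1 over wt was -0.10 on the array with siPax8 in Cy5 and -0.64 on the one with siPax8 in Cy3. The call against wt was lost without replicate 2, 3 or 4, with either dye orientation alone and with the Agilent intensities.

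Hmox1, heme oxygenase 1, a stress-inducible enzyme that opens the heme ring, had the highest ratio against siScramble among the 14 probes. Its probe (A_43_P11472, NM_012580) was printed at 10 places on each array. It gave 0.49, 0.46, 0.27 and 0.25 over siScramble and 0.10, 0.21, 0.10 and 0.25 over wt. All 8 values were above 0, and the 2 sets met at 0.25. The mean over siScramble was 0.37 ± 0.12, or 128.8% of the control level, and lay just outside the threshold (adjusted p = 0.00516). The mean over wt was 0.17 ± 0.07 and also missed it (adjusted p = 0.00689). The 10 spots gave means of 0.15 to 0.19 over wt, and the 9 spots free of outlier marks on every array gave 0.34 to 0.38 over siScramble. Spots on one array share their RNA and are no replicates. Hmox1 was called against siScramble in 7 of 17 other ways of processing, among them the filter on dim probes, the replicate block and the slide block, and the threshold of 0.05. Both blocks entered dye-swapped arrays of one replicate as separate values.

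The thioredoxin reductase Txnrd1, a selenium-containing enzyme that reduces thioredoxin, gave no single answer, because its 3 probes, all listed under NM_031614, disagreed. Probe A_44_P554454 gave 0.20, 0.21, 0.20 and 0.17 over wt and was called higher (0.20 ± 0.02, adjusted p = 0.000812). Probe A_44_P134070 gave -0.38, -0.17, -0.25 and -0.16 and was called lower (-0.24 ± 0.10, adjusted p = 0.00202). These 2 probes did not overlap, and each had one sign in all 4 replicates. The third, A_44_P456738, gave 0.01, -0.33, -0.22 and 0.43 over wt and -0.38, -0.30, 0.26 and 0.77 over siScramble. Its SD of 0.34 and 0.53 was far above the median of 0.063 and 0.060 over all probes, and on replicate 4 over siScramble it was high on both arrays, at 1.05 and 0.49. Against siScramble the other 2 probes had means of 0.07 ± 0.14 and -0.09 ± 0.13, neither called. All 3 were well above background on every array. The call of A_44_P554454 was lost without replicate 2 or 3 and that of A_44_P134070 without replicate 2, 3 or 4, and both were lost with the Agilent intensities and with siPax8 in Cy3 alone. Which transcripts each probe reads was not analysed here, so the mean over probes of -0.02 is not used as a level of the gene.

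**Figure D3:**
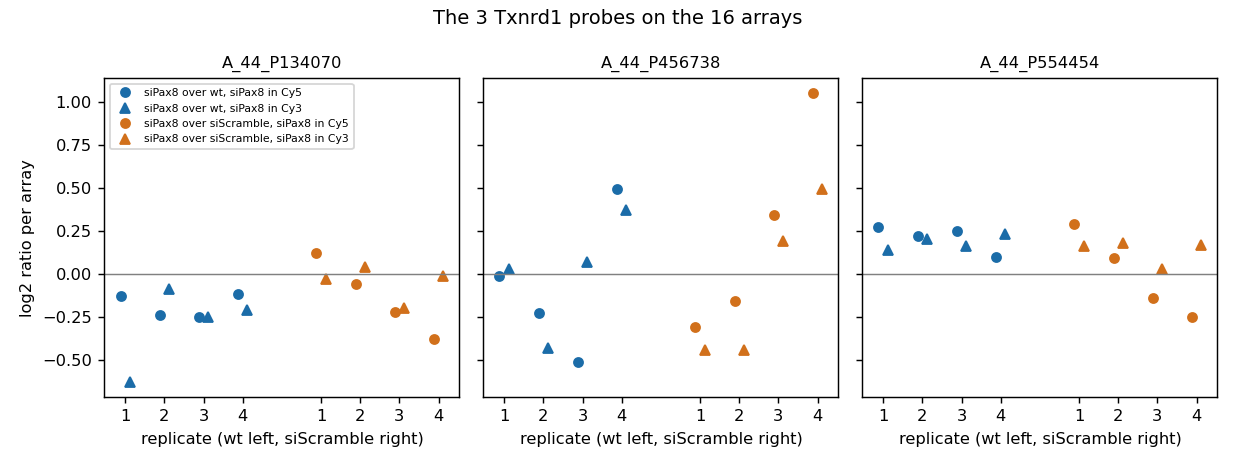
Log2 ratio of siPax8 over control (y axis) for the 3 Txnrd1 probes on each array, by replicate (x axis). Blue is against wt and orange against siScramble; circles have siPax8 in Cy5 and triangles in Cy3. A_44_P134070 is below 0 and A_44_P554454 above 0 on all 8 arrays against wt, while A_44_P456738 ranges from -0.51 to 1.05.

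The glutathione peroxidases reduce peroxides with glutathione. Gpx1, the abundant cytosolic form, was called higher against wt on 1 of its 2 probes (NM_030826). Probe A_42_P805300 gave 0.23, 0.09, 0.24 and 0.27 (0.21 ± 0.08, adjusted p = 0.0021) and A_44_P123315 gave 0.20, 0.06, 0.24 and 0.14 (0.16 ± 0.08, adjusted p = 0.00973). Replicate 2 was the lowest on both probes, and no replicate was below 0. Over siScramble the means were 0.01 ± 0.09 and -0.01 ± 0.06. Both probes were dim, at 7.48 and 7.23 log2 units in wt, where the offset of 50 in the background correction narrows ratios. With the Agilent software's intensities they gave 0.39 and 0.37, and neither passed. The call of A_42_P805300 was also lost without replicate 3 or 4 and with either dye orientation alone. Probe A_44_P123315 passed with the replicate block (adjusted p = 0.00366), the slide block (0.000642), the dye term (0.00219), both comparisons in 1 fit (0.00473) and Cy5 arrays alone (0.00141), so that in the first 4 of these fits Gpx1 was called on both probes. The 2 blocks and the dye term entered dye-swapped arrays of one replicate as separate values, so their smaller p-values do not rest on more replicates.

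Gpx4, which reduces lipid peroxides in membranes, was not called: its probe gave 0.01, -0.07, -0.07 and -0.10 over wt, with a mean of -0.06 ± 0.05 (adjusted p = 0.249), and -0.01 ± 0.08 over siScramble (95% interval -0.10 to 0.07). It was bright, at 13.51 log2 units in wt. Gpx3, the secreted form, was well above background in 1 of 8 arrays against wt and 0 of 8 against siScramble, in either channel, so its ratios of 0.03 ± 0.05 and -0.05 ± 0.08 carry no level of the transcript.

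Prdx1, a cytosolic peroxiredoxin whose active cysteine is restored by thioredoxin, was not called (-0.11 ± 0.04 over wt, adjusted p = 0.0258; 0.00 ± 0.08 over siScramble). Its replicates over wt were -0.07, -0.17, -0.10 and -0.09. The 2 dye orientations differed. With siPax8 in Cy5 the 4 arrays against wt gave -0.26, -0.20, -0.31 and -0.30, and with siPax8 in Cy3 they gave 0.11, -0.13, 0.11 and 0.11. Against siScramble the Cy5 arrays gave -0.21, -0.22, -0.06 and -0.29 and the Cy3 arrays 0.04, 0.26, 0.26 and 0.23. The values with siPax8 in Cy5 were below 0 on all 8 arrays, and the reported means average both orientations.

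The wider redox genes were grouped into lists of related function, 51 measured genes in all, beside the 10 enzymes. Against wt, 20 of the 51 changed on all their probes, 4 higher and 16 lower, with a median log2 ratio of -0.09; over all probes 15.3% were called, 7.03% higher and 8.22% lower. Against siScramble 1 was higher and 0 lower, with a median of -0.03, where 2.11% of all probes were called. The median over all probes was -0.004 in both comparisons. These all-probe values again include probes near background, and some of the 51 genes were near background too. They are also shares of single probes, whereas the 51 were counted as genes called on every probe. No share over all named genes is given, so the counts and shares are not directly comparable.

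Of 4 measured genes of hydrogen peroxide generation and use, 1 was lower against wt, Duox2 at -0.66 ± 0.19 (adjusted p = 6.50e-05). Over siScramble it stood at -0.13 ± 0.09 (adjusted p = 0.11), and the difference between the comparisons passed (-0.54, adjusted p = 0.00263). Its call against wt was lost with the Agilent intensities. Duox1 gave -0.16 ± 0.12 over wt (adjusted p = 0.0244) and 0.08 ± 0.06 over siScramble, neither called. Nox4 and Cyba, the remaining genes of this list, were well above background on 0 arrays in either channel. Their ratios therefore give no direction of change.

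Extracellular superoxide dismutase and copper supply showed the largest list median, -0.44 over 3 genes. Sod3, the secreted superoxide dismutase, was at -0.54 ± 0.03 over wt (adjusted p = 2.59e-06) and 0.20 ± 0.11 over siScramble (adjusted p = 0.0333). As with catalase the signs were opposite, and the difference of -0.75 passed in all 16 alternatives run for it. Ccs, the chaperone that loads copper into Sod1, fell by 0.44 on the log2 scale against wt (SD 0.04, adjusted p = 1.00e-05), as Sod1 did, and stood at -0.18 ± 0.08 over siScramble (adjusted p = 0.0256).

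Of 6 genes for other peroxiredoxins and for sulfiredoxin (Srxn1), 2 were lower against wt. These were the endoplasmic reticulum form Prdx4 (-0.29 ± 0.05, adjusted p = 0.000137) and Prdx5 (-0.32 ± 0.04, adjusted p = 6.56e-05). All 6 were below 0 over wt, and 3 of 6 over siScramble. Srxn1, at -0.03 ± 0.04 over wt, was well above background on 0 arrays in either channel, so its sign gives no direction of change. With siPax8 in Cy3 alone the Prdx4 call was lost, at -0.09. Of 2 other glutathione peroxidases, Gpx2 was lower against wt (-0.33 ± 0.06, adjusted p = 8.87e-05), a sign opposite to that of Gpx1. This call was lost with siPax8 in Cy3 alone, at -0.15. The other, Gpx6, was well above background on 0 arrays in either channel.

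In the thioredoxin system, 1 of 5 genes was higher and 1 lower against wt. Txnip, which binds and inhibits thioredoxin, was the only redox gene called against both controls, at 0.67 ± 0.08 over wt (adjusted p = 2.84e-06) and 0.31 ± 0.06 over siScramble (adjusted p = 0.00176). The call against siScramble was lost whichever replicate was left out. Mitochondrial Txnrd2 was at -0.39 ± 0.02 over wt (adjusted p = 1.39e-05), on 1 probe that kept its call under all 17 alternatives, and at -0.05 ± 0.04 over siScramble.

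Of 6 genes of glutathione synthesis and recycling, Ggt1 (-0.29 ± 0.09, adjusted p = 0.00052) and glutathione reductase Gsr (-0.20 ± 0.05, adjusted p = 0.00148) were lower against wt and glutaredoxin Glrx was higher (0.23 ± 0.07, adjusted p = 0.000774). Glrx gave 0.38 ± 0.13 over siScramble, just outside the threshold (adjusted p = 0.00512). Gclm, the partner subunit of Gclc, stood at -0.07 ± 0.04 over wt and -0.07 ± 0.07 over siScramble, neither called. Glrx3 passed on 1 of its 2 probes against wt (-0.18 ± 0.08 as their mean).

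Among 9 measured genes of heme, iron and the Nrf2 response, 2 were higher and 3 lower against wt. Nfe2l2, which encodes Nrf2, was at 0.66 ± 0.13 (adjusted p = 1.43e-05), whereas Nqo1, a widely used Nrf2 target, was at -0.22 ± 0.09 (adjusted p = 0.00245). The ferritin chains moved in opposite directions: as means over probes, Fth1 was at -0.74 ± 0.10 (2 probes, adjusted p = 2.21e-06 and 4.02e-06) and Ftl1 at 0.54 ± 0.09 (4 probes, adjusted p from 8.62e-06 to 3.17e-05). Both are members of families with many near-identical copies, which the probes may also detect. Over siScramble the values were 0.18 ± 0.11 for Nfe2l2, -0.10 ± 0.08 for Fth1 and -0.04 ± 0.11 for Ftl1, none called.

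Of 9 measured genes for selenoproteins and their synthesis, 2 were lower against wt: the deiodinase Dio1 (-0.80 ± 0.04 over 2 probes, adjusted p = 1.26e-06 and 7.88e-07, with the difference of -0.56 also past the threshold) and Msrb1 (-0.21 ± 0.02, adjusted p = 0.000598). Over siScramble Dio1 gave -0.24 ± 0.06 and missed the threshold on both probes (adjusted p = 0.00893 and 0.0123). In NADPH supply 1 of 5 was lower, Me1 (-0.48 ± 0.13, adjusted p = 0.000101). Of 2 methionine sulfoxide reductases measured beside Msrb1, which is also such an enzyme, Msra was lower (-0.19 ± 0.03, adjusted p = 0.00118).

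Among these other redox genes, some calls against wt were lost when 1 replicate was left out, with fewer samples and little change in the ratio. Those of Nqo1 and Msra were lost without replicate 2, 3 or 4, that of Gsr without replicate 3 or 4, and those of Ggt1, Glrx and Msrb1 without replicate 3. In these lost fits Msra stood at -0.20 to -0.18, Nqo1 at -0.24 to -0.18, Gsr at -0.21 and -0.19, Ggt1 at -0.26, Glrx at 0.24 and Msrb1 at -0.21. The difference between the comparisons was no longer called for Duox2 without replicate 2, 3 or 4, or for Dio1 without replicate 2. The calls of Ccs, Dio1, Fth1, Ftl1, Nfe2l2, Sod3, Txnip and Txnrd2 against wt held under all 17 alternatives.

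**Figure D4:**
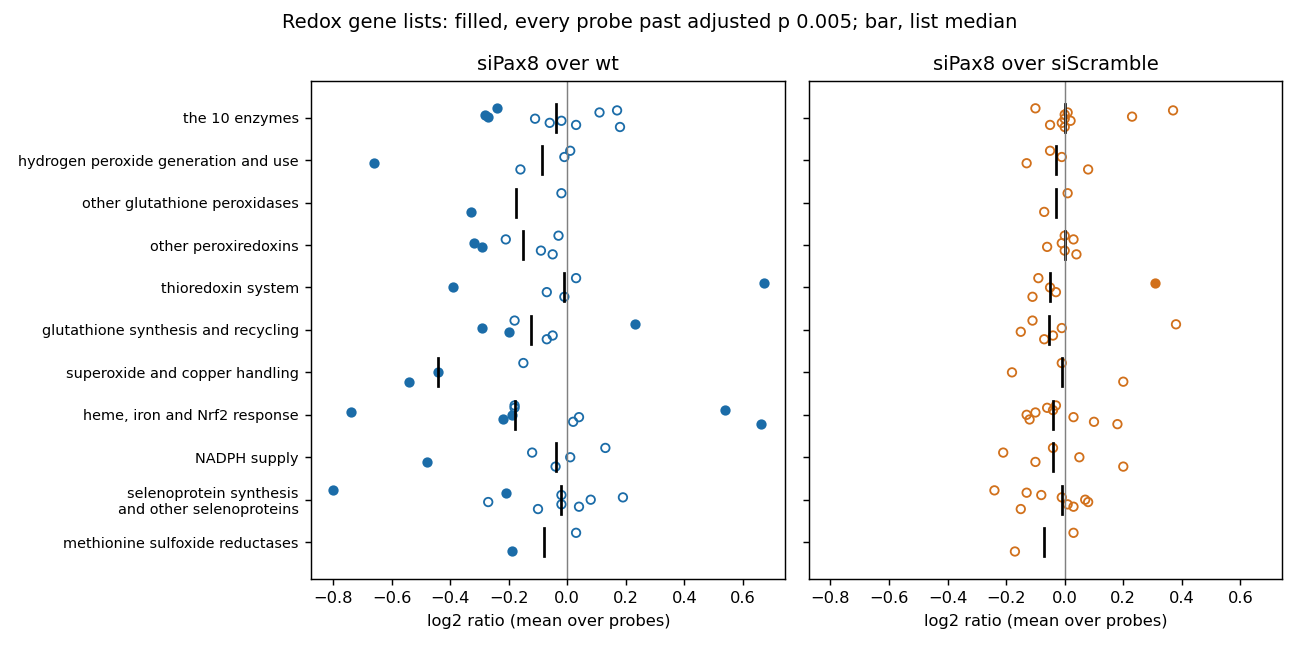
Log2 ratio of siPax8 over wt (left) and over siScramble (right) for each measured gene of the redox lists (y axis). Filled points are genes called on every probe, open points the rest, and black bars list medians. Against siScramble the only filled point is Txnip at 0.31.

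Genes outside redox metabolism also differed from the controls. Of 14 measured interferon-response genes, 12 were higher against wt and 1 against siScramble, with medians of 1.32 and 0.27. The log2 of their summed intensities, in which bright probes weigh most, was 13.39 to 13.53 in wt, 14.68 to 14.95 in siScramble and 15.16 to 15.66 in siPax8 cells. Of 6 thyroid markers, Pax8 among them, 5 were lower against wt and 1, Tg, against siScramble (-0.65 ± 0.12, adjusted p = 0.000527). The log2 of their summed intensities was 17.46 to 17.58 in wt, 17.14 to 17.39 in siScramble and 16.83 to 16.96 in siPax8 cells. This order did not hold for each marker: over siScramble 5 were below 0, while Slc5a5 was at 0.07 ± 0.09. The macrophage gene Cd68, the only one of 4 immune markers measured, was higher against wt (0.30 ± 0.12, adjusted p = 0.0008) and at 0.00 ± 0.09 over siScramble. Its probe was dim, at 7.18 to 7.33 log2 units in wt. The part of these groups in the values of the 10 enzymes was not tested. PCCl3 is 1 cell line, and in bulk RNA from it fewer cells expressing a gene and less RNA per cell cannot be told apart.

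How far the 4 leading enzyme probes moved with the processing is shown by the plot of their ratios under each alternative. None changed sign in either comparison, apart from Sod1 over siScramble, which stayed near 0. Over wt the split by dye moved all 4 most, and over siScramble all but Gclc, which was at -0.17 with the Agilent intensities. Over wt, Hmox1 was at 0.29 with siPax8 in Cy5 and 0.05 with siPax8 in Cy3.

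**Figure D5:**
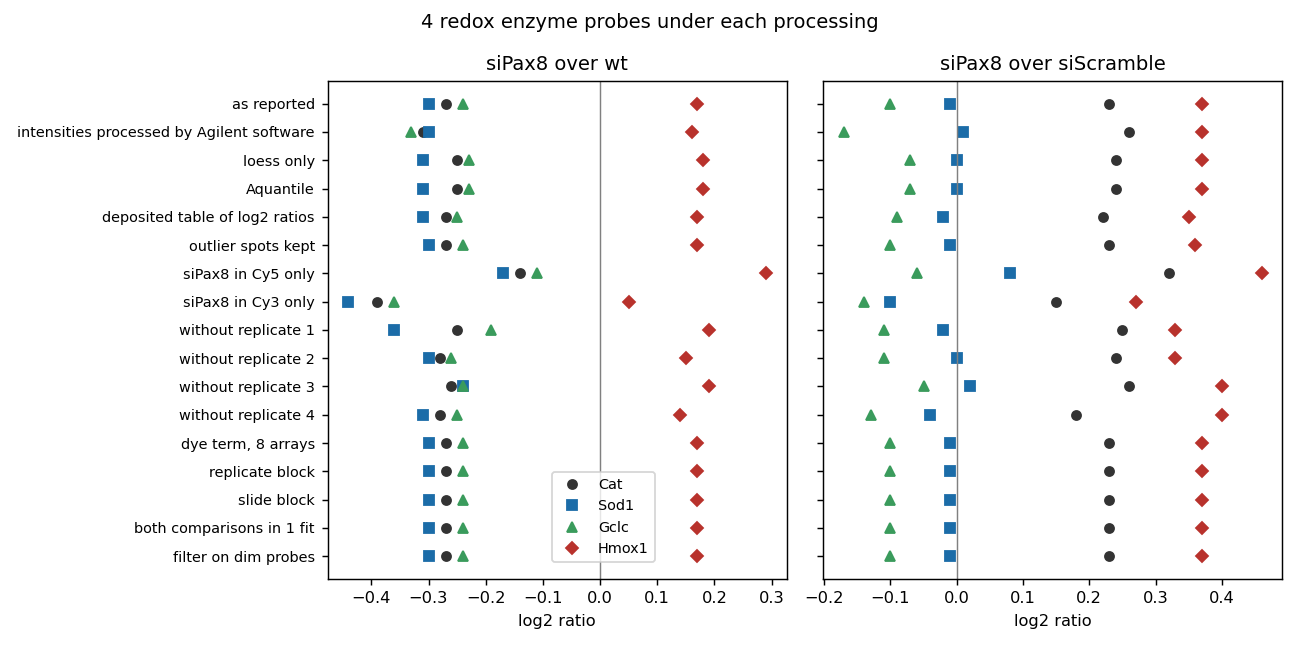
Log2 ratio (x axis) of the Cat, Sod1 (A_44_P461197), Gclc and Hmox1 probes over wt (left) and over siScramble (right) under each processing (y axis). Points are means over the replicates used. Catalase stays between -0.39 and -0.14 over wt and between 0.15 and 0.32 over siScramble.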

How the data were processed

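The authors quantified the scans with Agilent Feature Extraction (version 10.1.1.1 per the file headers), and the deposited files hold spot intensities of both channels. A deposited table of log2 ratios, made by the authors with limma per the labels and with loess and quantile normalization per the methods, was found by comparison to hold control over siPax8 (correlation with the ratios used here -0.999 to -0.992, on base 2); its column medians were -0.000112 to 0.0068, any centring is unknown, and it served as an alternative only.

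Spot means were background-corrected (normexp, offset 50), loess-normalized on each array and quantile-normalized across the 16 arrays, outlier-marked spots were left out, spots averaged per probe and dye-swapped arrays averaged to 4 replicates. limma 3.58.1 (R 4.3.3) with Benjamini-Hochberg adjustment over 41012 probes gave the tests; tables were made with Python. The difference between the comparisons was a contrast of both sets of ratios. The threshold of 0.005 follows the methods. The fit was tested on simulated data with known changes. RefSeq accessions gave 10768 of 41012 probes a single symbol. A gene was called where all its probes passed with one sign. Named genes were all probes of the 10 enzymes, Pax8, and up to 4 genes with the largest ratio per list among those with a probe past the threshold. Outside this rule, markers, Srxn1, Gpx6, Nox4 and Cyba were named for their detection or level, and Gclm and Duox1 as partners of Gclc and Duox2 in function. All of these were named after their values were seen. The 10 genes and the lists were chosen with earlier results of these data known; 1 gene of the lists is not reported here.

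Alternatives were the Agilent-processed intensities, other between-array scalings, the deposited table, single dye orientations, a dye term, replicate and slide blocks, 1 fit for all arrays, a filter on dim probes, a threshold of 0.05, leaving out each replicate and, added after seeing the data, keeping outlier-marked spots. The dye term, the slide block and, within a comparison, the replicate block entered dye-swapped arrays of one replicate as separate values. Correlations within blocks were estimated below 0, at -0.124 and -0.115 for replicates and -0.317 and -0.268 for slides (wt and siScramble). For the difference the replicate block paired the comparisons by replicate number. The methods name another Feature Extraction version and scan resolution than the file headers.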

Additional observations from a re-analysis of the deposited data

Results flagged for a closer look

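The catalase probe A_44_P362954 differed between the comparisons: the log2 ratio over wt minus that over siScramble was -0.50 (SE 0.05, limma adjusted p = 0.000193). All 4 replicates were lower than wt and all 4 higher than siScramble. The difference ranged from -0.57 to -0.46 over 16 alternatives and stayed past the threshold in 15, the exception being arrays with siPax8 in Cy3 alone. In the 28 sets of 4 replicates examined, no single replicate stood far enough from the others to be marked.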

How the results depend on the processing

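The number of enzyme probes called against wt, 7 as reported, was 0 with the Agilent intensities, 3 with siPax8 in Cy3 only, 11 at adjusted p below 0.05, and 1 to 8 with one replicate left out (2 without replicate 2, 1 without replicate 3 and 2 without replicate 4). Against siScramble it was 0 as reported and with any one replicate left out, 1 with siPax8 in Cy3 only, with the replicate block or with the filter on dim probes, and 2 with the dye term, the slide block, both comparisons in 1 fit or adjusted p below 0.05. For the difference it was 1 as reported and with any one replicate left out, 0 with siPax8 in Cy3 only, 3 with the dye term or the replicate block, and 5 at adjusted p below 0.05. Over all probes, calls against wt, against siScramble and for the difference were 1674, 0 and 570 with the Agilent intensities, 6258, 867 and 1409 as reported, and 6682, 1704 and 2305 with the replicate block. No call reversed its direction for an enzyme or another called redox gene. The cause of these changes was not tested, apart from leave-one-out fits, which have fewer samples.

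The replicate numbers did not qualify as pairs between the comparisons: correlations of deviations were 0.39, 0.17, 0.04 and 0.57, and replicate 3 correlated better with another number (0.41). Between the 2 dye orientations over wt, replicate 2 correlated at 0.12 with its own swap and better with another number (0.2). Every other number in either comparison correlated best with its own swap. Arrays were averaged by the labelled number throughout. The replicate block gave 8 enzyme probes called against wt. Of 20 other redox genes called against wt, 8 kept the call under all 17 alternatives, 12 lost it with the Agilent intensities and 7 when some replicate was left out. Taking the brightest probe in place of the mean over probes gave 0.21 for Gpx1, 0.20 for Txnrd1 and -0.25 for Sod1 over wt, where the means were 0.18, -0.02 and -0.28.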
